A study of Rattus norvegicus with 9 samples.

Results

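Sympathetic neuron genes were followed as a set of 43 genes in the superior mesenteric artery (SMA) of rats before and after ischemia. The set was written as a list of gene symbols covering noradrenaline synthesis and transport, granule proteins, neurofilaments, axonal proteins, lineage transcription factors, synaptic proteins and receptors. It was chosen with earlier results of these data known. All 43 symbols were present among the 37203 gene symbols of the count table, and all 43 were among the 15482 genes with enough counts to be tested. The arteries came from 8-week-old Sprague-Dawley rats in 3 groups of 3 libraries: normal rats, rats 1 h into ischemia and rats 4 h into ischemia. Ischemia was produced by bleeding through the femoral artery, and the study describes pentobarbital anaesthesia for preparing this model. It does not say whether normal rats were anaesthetised or catheterised. Anaesthesia and surgery can therefore not be told apart from ischemia here. No transgene is named for these rats. The artery is a tissue sample, so each library mixes smooth muscle, endothelium, fat, nerve and whatever else was dissected with the vessel.

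Sympathetic neurons supply the wall of the SMA and release noradrenaline onto its smooth muscle. Noradrenaline is made from tyrosine by tyrosine hydroxylase (Th), aromatic amino acid decarboxylase (Ddc) and dopamine beta-hydroxylase (Dbh), is loaded into vesicles by the vesicular monoamine transporter Slc18a2 and is taken back up by the noradrenaline transporter Slc6a2. The cell bodies of these neurons, which hold most of their messenger RNA, lie in ganglia such as the superior mesenteric ganglion close to the root of the artery, while the arterial wall receives their axons. In a bulk library, fewer cells of a type and less RNA per cell cannot be told apart.

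The promoters of catecholamine and granule genes are known for the cAMP response element, an 8-base palindrome that appears in 4 of the member promoters. The 250 bases before the start site are shown for those 4 genes and for Dbh, which has shorter partial matches only. They are written 5′ to 3′ on the strand of the gene, from RefSeq on assembly GRCr8 (minus strand for Th and Scg2, plus strand for Slc18a2, Syn1 and Dbh). Capitals mark each match to TGACG on either strand, and a full TGACGTCA is seen as a run of 8 capitals.
Th: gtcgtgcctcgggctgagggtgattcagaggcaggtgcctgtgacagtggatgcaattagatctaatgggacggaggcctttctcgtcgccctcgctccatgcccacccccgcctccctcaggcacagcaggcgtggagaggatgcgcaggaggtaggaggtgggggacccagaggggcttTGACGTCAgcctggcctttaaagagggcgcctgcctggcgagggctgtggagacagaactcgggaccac
Slc18a2: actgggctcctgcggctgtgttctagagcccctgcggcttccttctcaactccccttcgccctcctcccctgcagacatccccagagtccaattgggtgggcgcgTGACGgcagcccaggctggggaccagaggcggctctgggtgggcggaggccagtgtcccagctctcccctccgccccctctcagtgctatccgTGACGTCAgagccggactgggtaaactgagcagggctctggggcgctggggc
Scg2: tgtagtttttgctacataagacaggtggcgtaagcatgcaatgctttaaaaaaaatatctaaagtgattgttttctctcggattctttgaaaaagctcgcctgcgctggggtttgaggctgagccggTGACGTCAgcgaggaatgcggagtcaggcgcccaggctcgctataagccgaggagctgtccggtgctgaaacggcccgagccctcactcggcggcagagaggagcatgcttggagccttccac
Syn1: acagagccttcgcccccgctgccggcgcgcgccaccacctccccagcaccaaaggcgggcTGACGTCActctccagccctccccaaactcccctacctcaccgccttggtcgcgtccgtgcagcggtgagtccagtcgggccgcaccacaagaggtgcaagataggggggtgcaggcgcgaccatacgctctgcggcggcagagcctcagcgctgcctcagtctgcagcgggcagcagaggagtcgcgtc
Dbh: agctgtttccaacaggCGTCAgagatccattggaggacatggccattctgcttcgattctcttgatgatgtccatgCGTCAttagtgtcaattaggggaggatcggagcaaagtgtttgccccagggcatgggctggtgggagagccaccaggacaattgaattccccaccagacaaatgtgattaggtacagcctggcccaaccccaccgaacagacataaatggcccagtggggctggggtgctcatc

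RefSeq promoters were matched for 33 of the 43 members (not for Slc6a2, Chga, Nefl, Nefm, Nefh, Stmn2, Gap43, Kif5a, Snap25 and Thy1). TGACGTCA, searched on both strands, was in 4 of 33 member promoters (12.1%) and in 1.70% of the 27457 promoters of the table. Its first base lay 69 bases before the start of Th, 52 before Slc18a2, 123 before Scg2 and 190 before Syn1. The shorter TGACG, which is contained in every TGACGTCA, was in 11 member promoters (33.3%) and in 19.0% of all promoters. TCAGCACC, the left part of the neuronal silencer element RE1, was in 3 member promoters (9.09%: Elavl4, Scg2 and Tubb3) and in 1.33% of all. The GATA site AGATAA was in 9.09% of member promoters against 10.05% of all, and the homeodomain site TAATTA in 3.03% against 4.94%. These are matches of letters and no binding was measured here. After 1 h of ischemia the fitted log2 fold changes of the 4 genes with TGACGTCA were 3.90 for Th, 4.21 for Slc18a2, 3.74 for Scg2 and 4.43 for Syn1, on both sides of the median of all members (4.09), and none of the 4 was called.

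The 9 libraries held 13114273 to 15504240 counts each, and 17825 to 20597 gene symbols had at least 1 count. Levels are given as CPM, counts relative to a library size scaled by the trimmed mean of M-values (TMM), so that 1 CPM stood for 12.1 to 17.9 counts. A count of 0 allows a level of up to 0.168 to 0.249 CPM, depending on the library, with 3 counts as the upper limit for counting error alone. The common biological coefficient of variation over the genes tested was 51.6%. Smooth muscle markers were high in every library, as the tissue label says, but the summed level of 8 of them differed between libraries, from 11225 to 68683 CPM. The labels give no batch.

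Before any comparison of groups, the libraries themselves have to be described, because they stood apart in the member genes in a way that crossed the groups. In replicates 1 and 3 at 1 h and replicate 3 at 4 h, Dbh had 27714, 30376 and 30912 counts. Dbh had 2072 and 900 counts in normal replicates 1 and 3 and 3375 counts in replicate 2 at 1 h. It had 0 counts in normal replicate 2 and 8 and 3 counts in replicates 1 and 2 at 4 h. Ordered by Dbh alone, the libraries therefore fell into a high, a middle and a near-zero set of 3 each, and only the 1 h group had no near-zero library.

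The other 42 members followed the same order. For 42 of 42 the 3 libraries highest in Dbh were also the 3 highest, and for 35 of 42 the 3 lowest in Dbh were also the 3 lowest. This order was not counted over all genes tested, so how particular it is to the members cannot be told from these counts. Within the 3 high libraries the members differed little: the highest library was 1.15-fold above the lowest for the median member, and for 40 of 42 members it was less than 1.5-fold above, with 2.005-fold for Chga as the widest. From the lowest of these 3 libraries down to the next library the median step was 8.01-fold, with a range from 1.09 to 13.4. The 7 members whose 3 lowest libraries were not the same as for Dbh were Gch1, Scg3, Npy, Map1b, Hand2, Isl1 and Vamp2.

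Near-zero libraries had low levels of most members. In normal replicate 2, 12 members had 0 counts, and in replicates 1 and 2 at 4 h 4 and 6 members had 0 counts, while no member was at 0 in the other 6 libraries. Ina, Elavl4 and Chrnb4 had 0 counts in all 3 of them. Only 5, 5 and 7 members exceeded 10 CPM there, against 42 in each of the 3 high libraries and 28, 25 and 30 in the middle ones. The members above 10 CPM in a near-zero library were Maoa, Map1b, Hand2 and Vamp2 in all 3, Syt1 and Uchl1 in 2 each, and Scg3 in 1. The heatmap of member levels shows this: 3 bright columns, 3 of intermediate colour and 3 dark ones, while the rows of Vamp2 and Hand2 are the most even (2.02-fold and 2.85-fold from lowest to highest library).

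**Figure D1:**
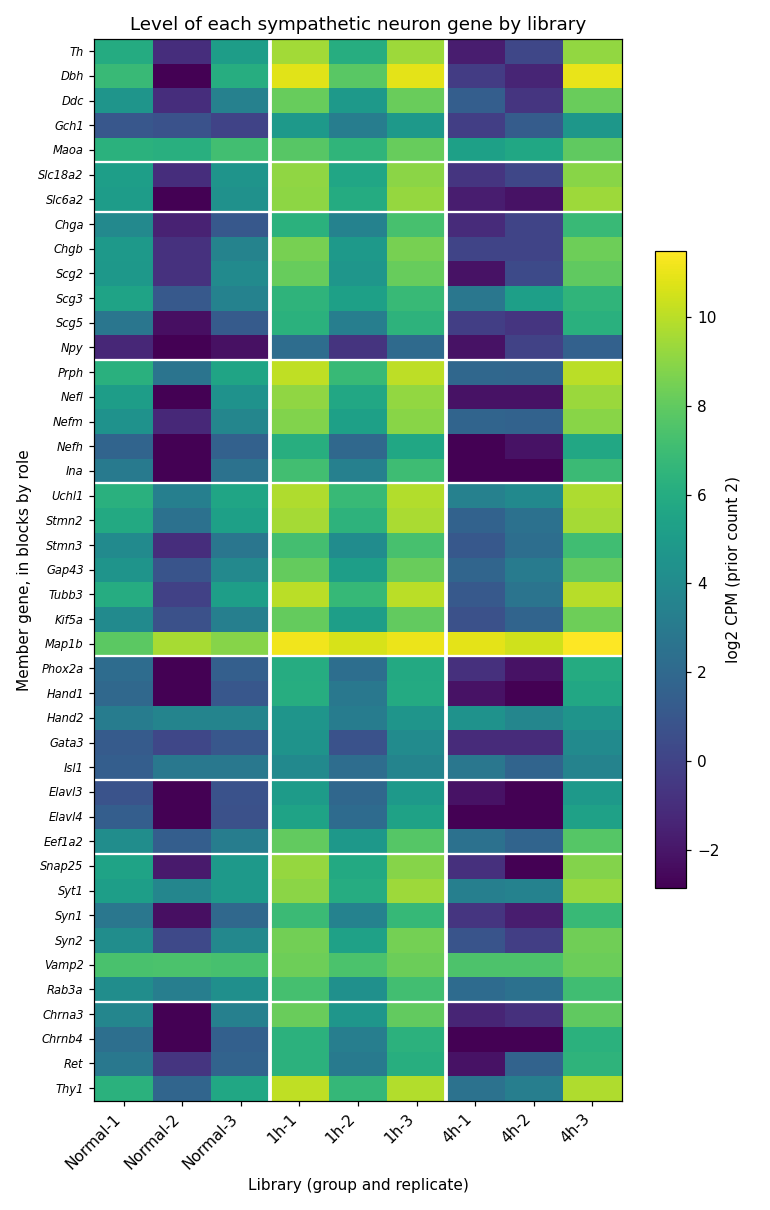
Colour gives the level of each of the 43 members (rows, in blocks by role) in each of the 9 libraries (columns) as log2 CPM with a prior count of 2. The columns for 1 h replicates 1 and 3 and 4 h replicate 3 are brightest in 43 of 43 rows, and those of normal replicate 2 and 4 h replicates 1 and 2 are mostly dark.

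As a share of all counts, the 43 members took 1.71%, 2.06% and 1.90% in the 3 high libraries and between 0.114% and 0.327% in the other 6. The 95% Wilson intervals of the extremes were 0.112% to 0.116% for normal replicate 2 and 2.05% to 2.06% for replicate 3 at 1 h. They cover counting error only and do not overlap. Map1b held most of the member counts in the near-zero libraries: without it their shares were 0.0337%, 0.0256% and 0.0321%, against 1.48% to 1.80% in the high libraries.

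Compared with normal arteries, none of the 43 members was called at 1 h, although all 43 had a fitted change above 0. The median log2 fold change of the members was 4.09, with a range from 0.70 for Vamp2 to 4.75 for Nefm, while the median of all 15482 genes was -0.0076. Calls needed a fold change above 1.5 together with an adjusted p below 0.05 in the quasi-likelihood test of edgeR, which called 0.0581% of all genes. The smallest adjusted p of a member was 0.205, for Map1b. At an unadjusted p under 0.05, 5 members (11.6%) were higher (Npy, Syt1, Eef1a2, Gch1 and Map1b), against 7.98% of all genes. In 35 members (81.4%) all 3 libraries at 1 h were above all 3 normal libraries, against 12.8% of all genes. The 8 that overlapped were Maoa, Chga, Scg2, Scg3, Hand2, Gata3, Isl1 and Vamp2. DESeq2, run as an alternative, gave an adjusted p for 25 of the 43 members and none for the other 18, Dbh, Prph and Stmn2 among them. Over all genes, 14639 of 15482 had one, so the 25 may not stand for the whole set. DESeq2 called 4 of those 25 (16%) higher (Npy, Syt1, Eef1a2 and Map1b), against 2.43% of the genes it gave an adjusted p. The members moved nearly as a unit across libraries, so these counts do not come from 43 separate observations.

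At 4 h against normal, the members were again not called, and the groups overlapped in nearly all of them. The median log2 fold change was 3.01, from 0.23 for Maoa to 3.82 for Nefm, against 0.027 for all genes. edgeR called 0.0904% of all genes and none of the members, whose smallest adjusted p was 0.160 (Map1b). Npy, Gch1 and Map1b (6.98%) were higher at an unadjusted p under 0.05, against 5.07% of all genes. Map1b, Hand2 and Vamp2 were the 3 members (6.98%) without overlap in CPM, against 7.93% of all genes. In unscaled counts Hand2 and Vamp2 did overlap. Replicate 2 at 4 h had 159 counts of Hand2 against 155, 164 and 164 in normal arteries. For Vamp2 it had 2103 counts against 2924, 2298 and 2177. DESeq2 called Map1b alone of the 25 members with an adjusted p (4.00%), against 1.60% of the genes with one. The positive median at 4 h rested on replicate 3: without that library it was -2.99, and of the 11 members with fold changes given below, Th, Dbh, Slc6a2, Maoa, Prph, Stmn2, Snap25 and Chrna3 then had a fitted change below 0.

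Between 4 h and 1 h no member was called, and the same held for all genes (0 of 15482 in edgeR, and 0 in DESeq2, which gave an adjusted p for 25 members). The median member was at -1.11 on the log2 scale, with a range from -1.35 for Hand1 to 0.03 for Map1b, and 41 of 43 were below 0. No member had an unadjusted p under 0.05, against 2.58% of all genes in either direction. No member had groups without overlap, against 6.24% of all genes. The smallest adjusted p of a member was 0.856. Without replicate 3 at 4 h the median became -7.03, and 37 members (86.0%) were lower at an unadjusted p under 0.05, against 20.7% of all genes in either direction in that fit. The 3 contrasts share libraries, so they are not separate evidence.

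**Figure D2:**
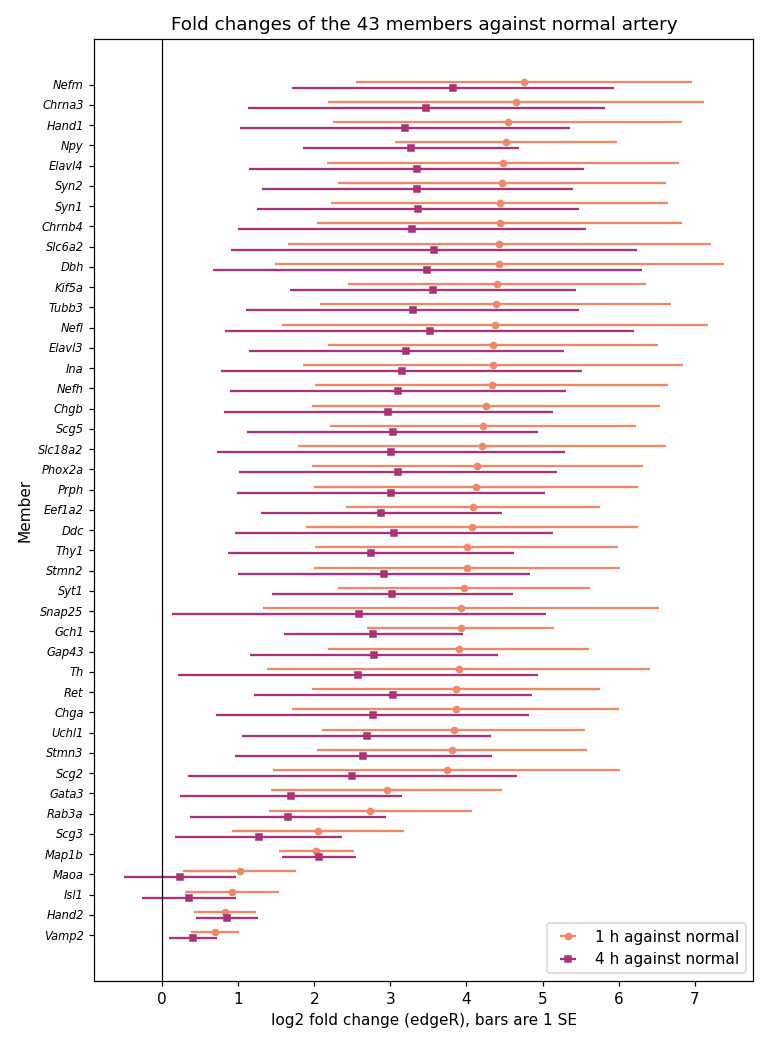
Points are log2 fold changes from edgeR of the 43 members (rows) at 1 h and 4 h against normal artery, and bars are 1 standard error. Most points lie between 2 and 5, and the bars of most members exceed 1 log2 unit, with the shortest for Vamp2, Hand2 and Map1b.

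Synthesis and breakdown of noradrenaline were covered by 5 members (Th, Dbh, Ddc, Gch1 and, for breakdown, Maoa). Their median log2 fold change was 3.93 at 1 h and 2.77 at 4 h, and none was called. Th, the rate-limiting enzyme, was at 61.7, 0.365 and 35.3 CPM in normal replicates 1 to 3, at 722, 68.4 and 661 CPM at 1 h and at 0.165, 0.995 and 579 CPM at 4 h. All 3 libraries at 1 h were above the normal ones, the lowest by little, and the 4 h group held both the lowest level and a level close to the top. The log2 fold change of Th was 3.90 at 1 h (SE 2.51, adjusted p = 0.409) and 2.57 at 4 h (SE 2.37, adjusted p = 0.673) in edgeR.

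Dbh, the last enzyme of the pathway, averaged 60.8 ± 58.2 CPM in normal arteries, 1315 ± 944 CPM at 1 h and 681 ± 1178 CPM at 4 h (SD, n = 3). By library it was at 116, 0 and 66.5 CPM, then 1854, 226 and 1866 CPM, then 0.661, 0.249 and 2041 CPM. The SD was as large as the mean or larger at 4 h, where the single library at 2041 CPM was also the highest of the 9. Its log2 fold change was 4.43 at 1 h (SE 2.95, adjusted p = 0.421) and 3.48 at 4 h (SE 2.82, adjusted p = 0.629). Ddc reached 281 to 292 CPM in the 3 high libraries and stayed at or below 29.9 CPM in the other 6. Gch1, which makes the cofactor of Th, was low throughout, at 26.7 to 29.2 CPM in the high libraries, 9.02 CPM in replicate 2 at 1 h and 0.744 to 2.32 CPM in the other 5.

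Maoa, the mitochondrial oxidase that breaks noradrenaline down, behaved unlike the enzymes that make it. It was at 79.4, 72.0 and 142 CPM in normal arteries, 216, 91.8 and 285 CPM at 1 h and 38.9, 50.9 and 254 CPM at 4 h. The same 3 libraries were highest, but the whole span was 7.33-fold and no library was near 0. Its log2 fold change was 1.02 at 1 h (SE 0.74, adjusted p = 0.458) and 0.23 at 4 h (SE 0.73, adjusted p = 0.921).

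Transporters behaved as the synthetic enzymes did, with median log2 fold changes of 4.32 at 1 h and 3.29 at 4 h and 0 of 2 called. Slc6a2, which returns noradrenaline to the nerve ending, was at 33.9, 0 and 21.1 CPM in normal arteries, 527, 62.6 and 601 CPM at 1 h and 0.165, 0.0829 and 657 CPM at 4 h. The levels in the near-zero libraries correspond to 0, 2 and 1 counts and are not distinguishable from one another at this depth. The log2 fold change of Slc6a2 was 4.43 at 1 h (SE 2.78, adjusted p = 0.396) and 3.58 at 4 h (SE 2.67, adjusted p = 0.600). Slc18a2 was at 478 to 542 CPM in the high libraries, 23.1 to 48.9 CPM in the middle ones and 0.365 to 0.995 CPM in the others.

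Granule proteins and the peptide transmitter neuropeptide Y made up 6 members, with medians of 4.04 at 1 h and 2.87 at 4 h and none called. Npy had very low counts, 5, 0 and 1 in normal arteries, 69, 7 and 67 at 1 h and 1, 10 and 44 at 4 h. All 1 h libraries exceeded the normal ones, by as little as 7 against 5 counts, while the 4 h libraries overlapped with them. Its log2 fold change was 4.52 at 1 h (SE 1.46, adjusted p = 0.240) and 3.27 at 4 h (SE 1.42, adjusted p = 0.401) in edgeR, and DESeq2 gave an adjusted p of 0.0298 at 1 h. Over the alternatives tried at 1 h its adjusted p ranged from 0.0298 to 0.597.

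Of the granule proteins, Chgb and Scg2 (secretogranins, matrix proteins of dense-core granules) were at 315 to 378 CPM and 250 to 288 CPM in the high libraries and at most 1.16 CPM in the near-zero ones. Chga, the chromogranin that helps to form these granules, varied more: it was at 79.9, 160 and 116 CPM in the high libraries, and at 14.9 CPM in normal replicate 1 against 1.99 CPM in normal replicate 3. Scg5, a chaperone of a prohormone convertase, was at 74.2 to 85.3 CPM in the high libraries and at most 9.36 CPM elsewhere. Scg3 was the exception of the group, with 38.1 CPM in replicate 2 at 4 h, where Dbh had 3 counts, and 6.86 and 2.12 CPM in the other near-zero libraries.

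Intermediate filament genes, which code for the neurofilament subunits and related proteins of the axon, had medians of 4.35 at 1 h and 3.15 at 4 h, and 0 of 5 were called. Prph, the peripheral neuron filament peripherin, was at 76.6, 6.13 and 45.9 CPM in normal arteries, 1083, 111 and 1056 CPM at 1 h and 3.64, 3.48 and 1030 CPM at 4 h. The 3 high libraries were close to one another, far above all others. Its log2 fold change was 4.13 at 1 h (SE 2.13, adjusted p = 0.330) and 3.01 at 4 h (SE 2.02, adjusted p = 0.571). The light subunit Nefl was at 551, 566 and 644 CPM in the high libraries and at 0, 0.0827 and 0.0829 CPM in the near-zero ones. The medium subunit Nefm had the largest fitted change of all members, 4.75 at 1 h and 3.82 at 4 h, from 21.9, 0.292 and 13.1 CPM in normal arteries to 433, 39.4 and 484 CPM at 1 h and 3.31, 2.98 and 493 CPM at 4 h. The heavy subunit Nefh was at 52.0 to 69.8 CPM and Ina at 122 to 142 CPM in the high libraries.

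Axon and microtubule proteins had medians of 3.90 at 1 h and 2.79 at 4 h over 7 members, with 0 called. Stmn2, a regulator of microtubules in growing axons, was at 58.1, 5.40 and 38.4 CPM in normal arteries, 746, 85.1 and 804 CPM at 1 h and 3.06, 5.47 and 761 CPM at 4 h. Its 3 steps were as clear as those of Dbh, but with a low level that stayed above 3 CPM. The log2 fold change of Stmn2 was 4.00 at 1 h (SE 2.01, adjusted p = 0.325) and 2.92 at 4 h (SE 1.92, adjusted p = 0.563). In the high libraries Uchl1, an abundant neuronal ubiquitin hydrolase, was at 826 to 910 CPM, Tubb3, the neuronal beta-tubulin, at 997 to 1018 CPM, and Gap43, a protein of growth cones, at 265 to 289 CPM. Stmn3, a relative of Stmn2, was at 135 to 156 CPM and Kif5a, an axonal transport motor, at 264 to 314 CPM in the same libraries. Uchl1 kept 9.78 to 15.4 CPM in the near-zero libraries.

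Map1b, a microtubule-associated protein of axons, was the member that departed most from the others. It was outside the rule that fixed which members get a fold change and was added after its values had been seen. It was at 232, 766 and 471 CPM in normal arteries, 2338, 1555 and 2090 CPM at 1 h and 1894, 1381 and 2850 CPM at 4 h. All 6 ischemic libraries were above all 3 normal ones, including replicates 1 and 2 at 4 h, in which Dbh was near 0. The means were 490 ± 268 CPM in normal arteries, 1995 ± 400 CPM at 1 h and 2042 ± 746 CPM at 4 h (SD, n = 3). The log2 fold change of Map1b was 2.03 at 1 h (SE 0.49, adjusted p = 0.205) and 2.06 at 4 h (SE 0.49, adjusted p = 0.160) in edgeR, short of a call in both contrasts. DESeq2 gave adjusted p-values of 0.00139 and 0.000847. Over the alternatives tried its log2 fold change stayed between 1.69 and 2.53, and its adjusted p reached 0.585 at 1 h and 0.348 at 4 h. Within the normal group its order was the reverse of that of Dbh, with the highest Map1b in normal replicate 2, which had no Dbh count.

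**Figure D3:**
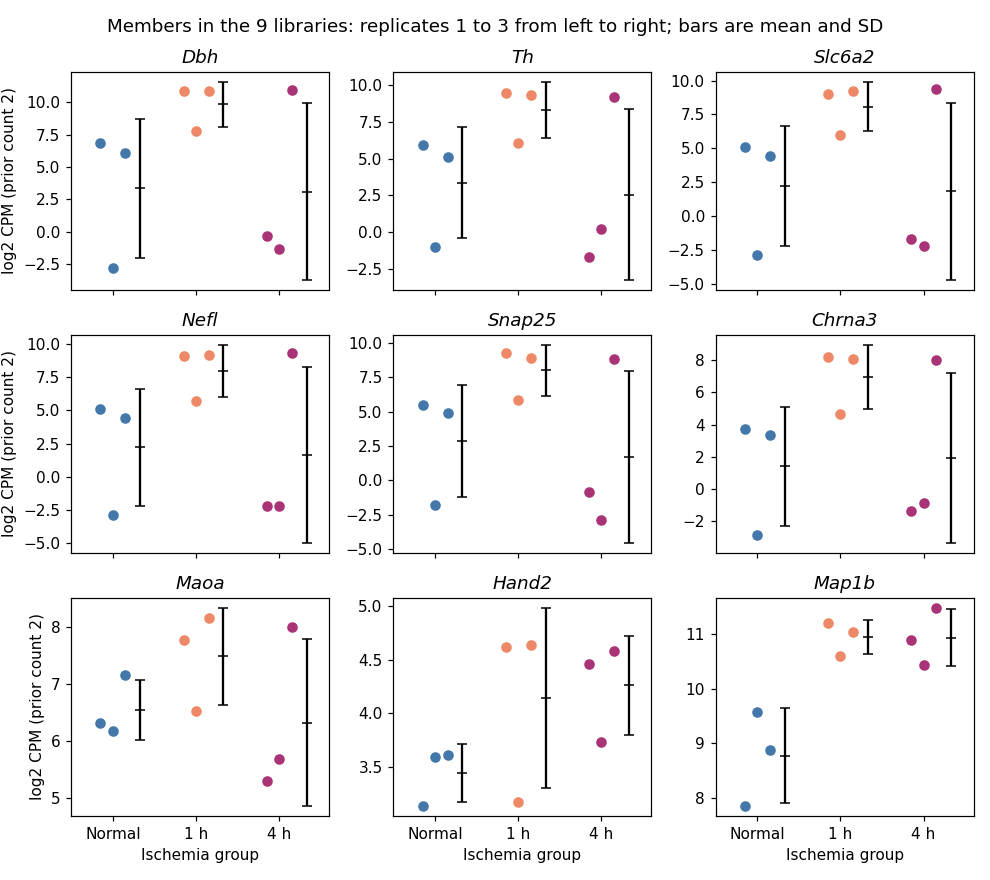
Each panel shows log2 CPM (prior count 2) of a member in the 9 libraries, with replicates 1 to 3 of each group from left to right and the mean and SD of the group (n = 3) beside them. Dbh, Th, Slc6a2, Nefl, Snap25 and Chrna3 share a pattern in which 4 h replicate 3 sits with 1 h replicates 1 and 3, whereas the 6 ischemic points of Map1b lie above its 3 normal points.

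Transcription factors of the sympathetic lineage had lower fitted changes, with medians of 2.95 at 1 h and 1.69 at 4 h over 5 members, and 0 called. Phox2a and Hand1 followed the neuronal pattern: Phox2a was at 58.0 to 64.8 CPM and Hand1 at 52.8 to 67.3 CPM in the high libraries, and both were at 0.413 CPM or less in the near-zero ones. Gata3 was at 16.1 to 22.5 CPM in the high libraries and at most 2.24 CPM in the other 6. Hand2 was at 8.68, 12.0 and 12.1 CPM in normal arteries, 24.4, 8.89 and 24.8 CPM at 1 h and 21.9, 13.2 and 23.8 CPM at 4 h. In CPM the 4 h libraries of Hand2 were all above the normal ones, including those with almost no Dbh. The margin of replicate 2 at 4 h rested on the scaling, with 159 counts against 155, 164 and 164 in normal arteries. Replicate 2 at 1 h lay within the normal range. The log2 fold change of Hand2 was 0.83 at 1 h (SE 0.41, adjusted p = 0.324) and 0.85 at 4 h (SE 0.41, adjusted p = 0.444). Isl1 was at 11.6 to 15.5 CPM in the high libraries and at 2.58 to 7.31 CPM in the others, with 7.30 and 7.03 CPM in normal replicate 2 and replicate 1 at 4 h.

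The RNA-binding proteins Elavl3 and Elavl4, which stabilise neuronal transcripts, were low outside the 3 high libraries. Elavl3 was at 29.6 to 32.5 CPM and Elavl4 at 41.2 to 44.2 CPM in the high libraries, and neither exceeded 4.35 CPM elsewhere. Eef1a2, an elongation factor of neurons and muscle, was at 208 to 264 CPM in the high libraries, 9.23 to 27.6 CPM in the middle ones and 2.55 to 5.46 CPM in the near-zero ones.

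Synaptic vesicle and release proteins had medians of 3.95 at 1 h and 2.81 at 4 h, and 0 of 6 were called. Snap25, a protein of the membrane fusion complex, was at 44.1, 0.146 and 29.9 CPM in normal arteries, 599, 57.4 and 477 CPM at 1 h and 0.413, 0 and 446 CPM at 4 h. It stepped with Dbh. Its log2 fold change was 3.93 at 1 h (SE 2.61, adjusted p = 0.420) and 2.59 at 4 h (SE 2.46, adjusted p = 0.681). Syt1, the calcium sensor of release, was at 498 to 678 CPM in the high libraries and still at 9.84 to 13.2 CPM in the near-zero ones. The synapsins Syn1 and Syn2 were at 106 to 121 CPM and 336 to 351 CPM in the high libraries. Rab3a, a vesicle GTPase, was at 137 to 151 CPM there and at 4.38 to 19.9 CPM in the other 6. Vamp2, a vesicle fusion protein that many cell types use, had 304 to 324 CPM in the high libraries and 161 to 174 CPM in the other 6, a span of 2.02-fold.

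Receptors and surface proteins had medians of 4.22 at 1 h and 3.16 at 4 h over 4 members, with 0 called. Chrna3, the alpha3 subunit of the ganglionic nicotinic receptor, was at 12.9, 0 and 10.2 CPM in normal arteries, 290, 25.7 and 267 CPM at 1 h and 0.248, 0.415 and 256 CPM at 4 h. The receptor mediates transmission within the ganglion. The log2 fold change of Chrna3 was 4.65 at 1 h (SE 2.48, adjusted p = 0.340) and 3.47 at 4 h (SE 2.35, adjusted p = 0.572). Its partner subunit Chrnb4 was at 77.9 to 82.8 CPM in the high libraries, 2.81 to 9.63 CPM in the middle ones and at 0 counts in the near-zero ones. Ret, a receptor of glial-derived growth factors, was at 70.0 to 86.6 CPM in the high libraries, and Thy1, a surface glycoprotein, at 861 to 1094 CPM.

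To see whether the members kept the same proportions where they were detected, each was divided by Dbh, library by library. The 6 libraries with at least 100 Dbh counts were used, that is normal replicates 1 and 3, the 3 libraries at 1 h and replicate 3 at 4 h. A ratio of counts of different genes is no comparison of their levels, since gene length was not taken into account, but the same ratio can be compared between libraries. For 27 of 42 members the highest ratio was less than 2-fold above the lowest, and for 13 of them less than 1.5-fold, while Dbh itself spanned from 900 to 30912 counts. The ratios of Slc6a2 (1.16-fold), Chrnb4 (1.17-fold) and Kif5a (1.18-fold), spanned least. Chga, Gata3, Rab3a, Map1b, Scg3, Isl1, Hand2, Maoa and Vamp2 spanned more than 4-fold, up to 19.4-fold for Isl1.

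**Figure D4:**
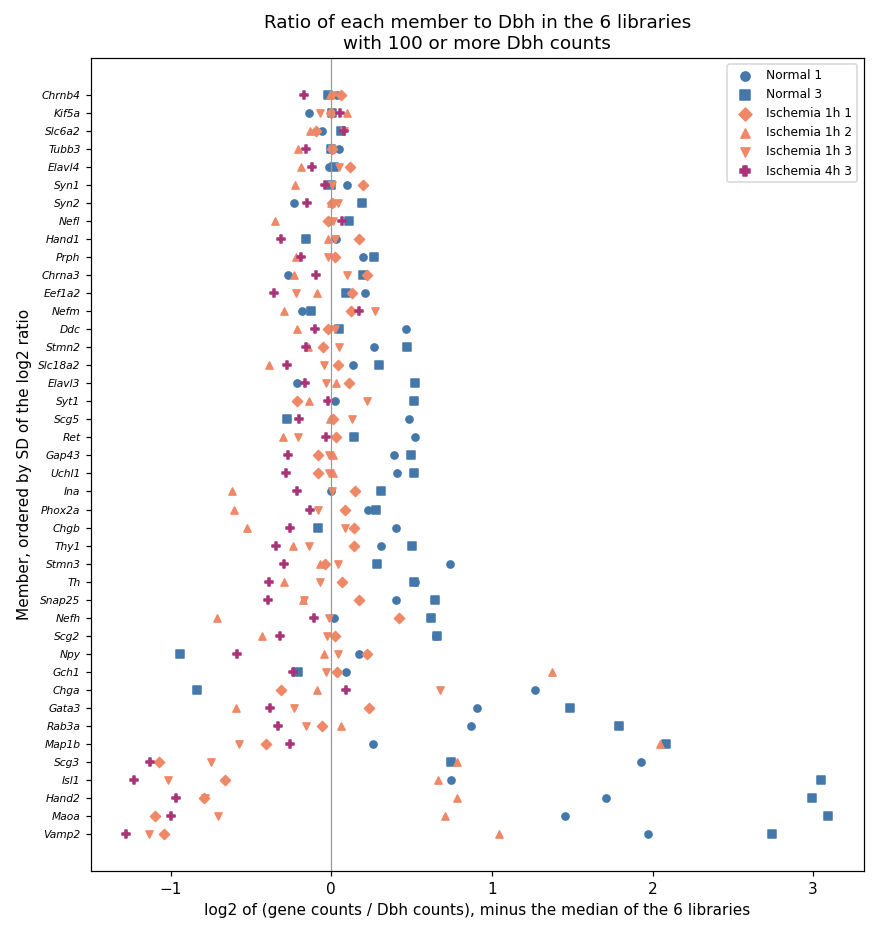
Each point is the log2 ratio of a member's counts to those of Dbh in 1 of 6 libraries, minus the median of the 6, with members ordered by the SD of the ratio. Members in the upper rows lie within 0.5 of 0 in all libraries, and the lowest rows (Vamp2, Maoa, Hand2 and Isl1) spread over more than 3 log2 units, with normal replicate 3 farthest to the right.

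Th per Dbh was 0.532 and 0.531 in normal replicates 1 and 3, 0.390, 0.303 and 0.354 at 1 h and 0.284 in replicate 3 at 4 h. Both normal ratios were above all 4 ischemic ones. With Snap25 as the denominator this order was not seen: Th per Snap25 was 1.40 and 1.18 in the normal libraries, 1.21, 1.19 and 1.39 at 1 h and 1.30 at 4 h. Over all members, both normal ratios were above all 4 ischemic ones for 19 of 42 with Dbh as denominator and for 5 of 42 with Snap25, and below them for 0 and 19. The order thus depended on the denominator. All ratios to a gene share its counts, so they are not separate observations. The same count was not made over all genes, so these numbers have no background to be read against. No test was made, as 3 libraries did not have enough Dbh counts.

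Glial markers did not follow the members. The 14 markers of Schwann and satellite glia summed to 5638, 308 and 1062 CPM in normal arteries, 1479, 3100 and 2549 CPM at 1 h and 603, 2732 and 2373 CPM at 4 h. Glial transcripts were therefore highest in normal replicate 1, a middle library for neuronal genes, and were as high in replicate 2 at 4 h as in the libraries rich in neuronal transcripts.

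The 8 smooth muscle markers summed to 25318, 12829 and 24372 CPM in the 3 high libraries, and to 48147, 68683 and 49638 CPM in the near-zero ones. Among the middle libraries they were at 11225, 49333 and 46819 CPM. The lower smooth muscle level thus moved with the high neuronal libraries and also with normal replicate 1, and its part in the results was not tested. Of the 6 fat cell markers, Ucp1, the uncoupling protein of thermogenic fat, had 1272, 46 and 555 counts in the 3 high libraries, 1 count in replicate 2 at 1 h and 0 in the other 5, while the list as a whole summed to 1476, 1789 and 775 CPM in the high libraries and to 262 to 2000 CPM in the others. The 6 endothelial markers summed to 387 to 1320 CPM, lymphocyte markers to at most 35.8 CPM and exocrine pancreas markers to 2.81 to 103 CPM, with no such order. The part of these cells in the results was not tested.

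**Figure D5:**
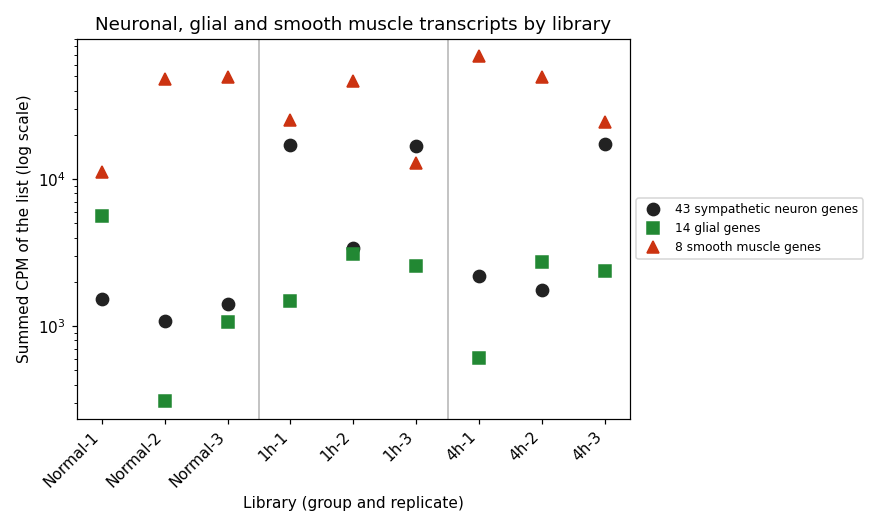
Summed CPM (log axis) of the 43 sympathetic neuron genes, 14 glial markers and 8 smooth muscle markers in each of the 9 libraries, without error bars as each point is a single library. The neuronal sum is 16909 to 17356 CPM in 1 h replicates 1 and 3 and 4 h replicate 3 and between 1089 and 3385 CPM in the other 6, while the glial sum is highest in normal replicate 1.

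Markers of other neurons and of the adrenal gland were checked, since some of them share genes with sympathetic neurons. Chat, which makes acetylcholine, had 1 count in each of replicates 1 and 3 at 1 h and 0 in the other 7 libraries. The choline transporter Slc5a7 had 29, 151 and 125 counts in the 3 high libraries and at most 7 in the others. Other genes of the cholinergic list did not show this step. Vip had 1, 5 and 10 counts in the high libraries and 0 to 24 in the others. Nos1 had 6, 14 and 23 against 6 to 45, and Slc18a3 had at most 1. Of the sensory neuron genes, Prdm12, a factor of pain-sensing neurons, had 0 counts in all 9 libraries. Calca, the gene of the calcitonin gene-related peptide, had 0 to 9 counts, and Tac1, Scn10a and Scn11a had at most 8. P2rx3 followed the members, with 30, 40 and 40 counts in the high libraries and 2 to 15 in the others. Trpv1 had 32 to 270 counts and Mrgprd 6 to 46, both highest in normal replicate 1. Pnmt, the enzyme that turns noradrenaline into adrenaline in chromaffin cells, had 4, 1 and 0 counts in normal arteries, 10, 19 and 14 at 1 h and 12, 18 and 22 at 4 h. Like Map1b, it was above all normal libraries in all 6 ischemic ones, at very low counts and without following Dbh. The vesicular transporter of chromaffin cells, Slc18a1, had 242, 159 and 91 counts in the high libraries and 0 to 69 in the others. Penk, the other chromaffin gene listed, had 28, 125 and 72 counts in the high libraries and 12 to 129 in the others. The adrenal cortex enzyme Cyp11b2 had 153, 87 and 54 counts in the high libraries and 0 to 10 in the others. Other genes of that list did not show this step. Star had 31, 49 and 29 counts in the high libraries and 14 to 44 in the others. Mc2r had 34, 78 and 28 against 1 to 49, and Cyp11a1, Cyp21a1 and Nr5a1 had at most 11. The 6 adrenal cortex genes in the table summed to at most 15.99 CPM. Over these lists, 2 of 5 cholinergic, 3 of 8 sensory, 3 of 3 chromaffin and 3 of 7 adrenal cortex genes had enough counts to be tested. edgeR called none of them. The exception to 0 at an unadjusted p under 0.05 was 1 chromaffin gene, higher in each contrast against normal. Over all genes, 7.98% were higher at 1 h and 5.07% at 4 h. DESeq2 called Pnmt in both of those contrasts.

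Other genes of the same pathway were taken from lists drawn up by function, with earlier results of these data known. In edgeR none of them was called in any contrast. DESeq2 called Pnmt at 1 h and 4 h, and Chrnb2, a nicotinic receptor subunit, and Sv2c, a synaptic vesicle protein, at 1 h. Of 9 further catecholamine genes, 1 was above and 1 below normal at 1 h with an unadjusted p under 0.05. Over all genes that share was 16.7% in either direction. The median log2 fold change of the 9 was 1.498. Cyb561, the granule cytochrome that supplies electrons to Dbh, was at 519, 569 and 527 CPM in the high libraries, 31.4 to 75.2 CPM in the middle ones and 6.20 to 8.54 CPM in the near-zero ones. Pcbd1, which recycles the cofactor of Th, was at 50.8 to 63.3 CPM in the high libraries and at most 7.09 CPM elsewhere.

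Among other transcription factors of the lineage, 3 of 5 were tested, with medians of 3.17 at 1 h and 1.99 at 4 h. Of these, 1 was higher at 1 h at an unadjusted p under 0.05, against 7.98% of all genes. Gata2, which endothelial cells also make, was at 101 to 128 CPM in the high libraries and kept 10.5 to 53.1 CPM in the other 6.

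Of 12 further receptors, 4 were higher at an unadjusted p under 0.05 at 1 h and 0 at 4 h. The shares of all genes were 7.98% and 5.07%. The medians of the receptors were 3.15 and 2.26. Ngfr, the receptor that neurons share with Schwann cells, was at 306 to 314 CPM in the high libraries and at 3.07 to 80.3 CPM in the other 6. Ntrk3 and Gfra3 were exceptions, both with their highest level in replicate 1 at 4 h, a near-zero library. Ntrk3 ranged from 136 to 921 CPM and Gfra3 from 11.9 to 36.0 CPM. Gfra2 was at 70.1 to 85.3 CPM in the high libraries and still at 38.4 CPM in replicate 2 at 4 h.

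The 19 other neuronal genes had medians of 3.85 at 1 h and 2.71 at 4 h. Of them, 1 and 0 were higher at an unadjusted p under 0.05, against 7.98% and 5.07% of all genes. Syp, a synaptic vesicle protein, was at 254, 231 and 230 CPM in the high libraries and at 0.073, 0.827 and 0.415 CPM in the near-zero ones. Cacna1b, the channel that carries the calcium current for transmitter release, was at 102, 89.6 and 102 CPM in the high libraries and at 0, 0 and 0.166 CPM in the near-zero ones.

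The genes outside the set whose levels were most like the mean of the members included Cplx1, Clstn3, Syngr3, Gdap1l1, Asphd2, Gng3, Dpp6, Svop and RGD1305733. Their Pearson correlations of log2 CPM with the member mean over the 9 libraries ran from 0.999 for Cplx1 to 0.997 for RGD1305733, given as a description, since all 9 points share the 3 steps seen above. Cplx1, a regulator of vesicle fusion that was also on the list of other neuronal genes, was at 149 to 176 CPM in the high libraries and 0.73 to 1.24 CPM in the near-zero ones. Among the members, the correlation of each with the mean of the others over the same libraries was lowest for Map1b (0.367), Hand2 (0.451), Isl1 (0.569) and Vamp2 (0.824) and highest for Thy1 and Chgb (0.998 for both).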

How the data were processed

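Total RNA of SMA from 3 normal rats, 3 rats at 1 h and 3 rats at 4 h of ischemia was sequenced on an Illumina platform after Trizol extraction, per the labels. The authors deposited raw counts per gene symbol, in whole numbers, without normalization. The submitters' processing notes name HISAT2. The counting program, genome build, annotation and use of strand are not given in the sources used here. The study's methods describe microarrays, but the deposited values are whole-number counts and were analysed as such. Overlapping, antisense or near-identical genes may share counts.

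Counts were analysed in R 4.3.3 with edgeR 4.0.16: filterByExpr left 15482 genes, libraries were scaled by TMM, and the quasi-likelihood F-test was fitted to all 9 libraries with group as the term. Adjustment over the whole tested table was by Benjamini-Hochberg, and calls needed a fold change above 1.5 and an adjusted p below 0.05. Standard errors are the log2 fold change over the square root of F. Log2 CPM used a prior count of 2. DESeq2 1.42.0, whose missing p-values were left out of its shares, was an alternative, as were RLE size factors, library size alone, no filter, only the groups compared, a replicate block and each library left out. The pipeline was tested on simulated data. Nothing but the labels says that libraries are separate rats, and p-values measure the spread between these samples. Every pair of libraries differed in at least 96.0% of their genes, so none was a copy.

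Members and lists were chosen with earlier results of these data known. All members are described, and fold changes are given for 10 members fixed by name (Th, Dbh, Slc6a2, Maoa, Npy, Prph, Stmn2, Hand2, Snap25 and Chrna3) and for Map1b, which was added later. Motifs were searched in RefSeq promoters (GRCr8, matched by symbol), and no coordinates are printed because the build of the files is not known. A few list genes enter the counts without being reported by name.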

Additional observations from a re-analysis of the deposited data

How the results depend on the processing

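No member was called in edgeR under any alternative, and the calls that appeared came from DESeq2 (4 members at 1 h and 1 at 4 h, of 25 with a DESeq2 value). Members at an unadjusted p under 0.05 at 1 h numbered 5 of 43 (16.7% of all genes in either direction). They numbered 14 of 25 in DESeq2 (21.3% of all genes), 11 of 43 without a filter on low counts (12.5%), 37 of 42 with only the groups compared (21.0%) and 3 to 39 of 43 when a library was left out (23.5% of all genes where they were 39). At 4 h they numbered 3 of 43 (12.4% of all genes), 5 of 25 in DESeq2 (15.4%), 1 of 43 with library size alone (13%) and 1 to 13 of 43 when a library was left out (11.6% where they were 13, with 1 of the 13 higher). In the contrast of 4 h with 1 h they numbered 0 to 37 when a library was left out. Leaving out a library gave medians of 3.62 to 4.86 at 1 h, -2.99 to 3.76 at 4 h and -7.03 to -0.55 for 4 h against 1 h, and the extremes of 39 members at 1 h, of 13 members at 4 h and of both lowest medians came without replicate 3 at 4 h. At 4 h the log2 fold changes of single members then ranged from -5.79 to 3.43 (Th), -7.03 to 4.35 (Dbh), -7.11 to 4.38 (Slc6a2), -1.12 to 0.62 (Maoa), -3.59 to 3.73 (Prph), -2.99 to 3.55 (Stmn2), -6.84 to 3.30 (Snap25) and -4.51 to 4.06 (Chrna3), and no direction changed at 1 h. Map1b was added to these alternatives after its values had been seen, and kept its direction in all of them.

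Same-numbered libraries did not deviate together throughout. Correlations of deviations over genes were -0.02, -0.65 and -0.17 among replicates 1. They were 0.42, 0.28 and 0.62 among replicates 2 and -0.16, 0.07 and 0.66 among replicates 3. Differently numbered libraries ranged from -0.71 to 0.65. The numbers were therefore not taken as pairs. With a replicate block, 26 of 43 members at 1 h (18.0% of all genes) and 1 at 4 h (11.4%) had an unadjusted p under 0.05, none was called, the medians were 4.41 for 1 h and 1.57 for 4 h against normal and -2.78 for 4 h against 1 h, and Maoa at 4 h turned to -0.14. Library size alone moved the median of all genes at 4 h to -0.15, and to -0.24 between 4 h and 1 h. Causes of these differences were not tested. Groups of 3 whose members span 3 orders of magnitude limit all tests here, and levels under about 0.2 CPM rest on 0 to 3 counts.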
